A study of Homo sapiens with 9 samples.

Results

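The subject is the transcripts of 37 genes for enzymes and 1 nucleoside carrier that supply cells with nucleotides: 5 of pyrimidine synthesis, 12 of purine synthesis, 9 that make or look after deoxynucleotides, 5 of folate one-carbon metabolism and 6 of salvage and uptake. They were picked by gene symbol from the 58735 genes of the deposited count table, and all 37 were in it. The cells were MIA PaCa-2, an established line from a human pancreatic cancer, which the labels list as wild type. Gene expression was measured by RNA-seq in 9 libraries after 24 h of treatment. The 3 control libraries came from cells given 0.1% DMSO, 3 from cells given 1 uM compound 1, a dual inhibitor of the kinases TBK1 and IKKepsilon, and 3 from cells given 1 uM SCH772984, an inhibitor of ERK1 and ERK2. The study asked which genes the ERK pathway and the TBK1 and IKKepsilon kinases regulate, separately or together. A single line at a single dose and time is the whole model, and nothing in the labels says that the 3 libraries of a group came from separate cultures, so p-values measure only the spread between these libraries.

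As background, cells build pyrimidines and purines step by step on or around the sugar phosphate PRPP, and both routes draw on amino acids and bicarbonate. Purine rings and thymidylate also need one-carbon units, which serine supplies through folate enzymes that exist as separate cytosolic and mitochondrial sets. Ribonucleotide reductase then turns ribonucleotides into the deoxynucleotides used for DNA, and salvage enzymes and carriers return free bases and nucleosides to the pool. Dividing cells, pancreatic cancer cells among them, are known for high demand on these routes.

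Promoter sequences, taken from RefSeq for build GRCh38.p14, are shown first because many enzymes of this group are textbook targets of factors that bind short letter patterns near the start of transcription. Of the 37 genes 33 had an entry, in the case of ADSS under its newer symbol ADSS2, and an entry holds 250 bases before the start and 50 after it. 5 patterns were searched on both strands: the E-box CACGTG, bound by MYC and related factors; an E2F type of 8 letters, TTTGGCGC, TTTCCCGC, TTTCGCGC or TTTGCCGC; CCAAT, the box of NF-Y; CCGGAAG, the core of ETS factors; and TGATGCAA, a composite pattern of ATF4. CACGTG was in the first listed window of 9 of the 33 genes, or 27.3%, against 7.26% of all 35116 windows. Counted over all 49 windows of these genes, some of which overlap, it was in 12, or 24.5%. The other patterns were in 3 genes (9.09%) against 3.31% of all windows for the E2F type, 13 (39.4%) against 34.6% for CCAAT, 4 (12.1%) against 10.3% for CCGGAAG, and 1 (3.03%) against 0.866% for TGATGCAA. A match is a description of the letters and does not show that a factor binds there.

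The next lines give the CACGTG and TGATGCAA matches that lie before the start, each with up to 10 bases on either side, in capitals and read 5′ to 3′ on the gene's strand. Apart from that of SLC29A1, they lie in a stretch that GENCODE also annotates as an exon of some transcript.
DHODH, chr16:72008575-72008600, plus strand: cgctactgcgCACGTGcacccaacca
PPAT, chr4:56435782-56435807, minus strand: cggagatttcCACGTGcagcaaatac
ATIC, chr2:215312003-215312028, plus strand: gccggcgggcCACGTGataagcccgg
DCTPP1, chr16:30429801-30429819, minus strand: agggttcctcCACGTGgtc
MTHFD1, chr14:64388328-64388352, plus strand: agtccctaagCACGTGggttgggtt
MTHFD1L, chr6:150866322-150866347, plus strand: cgcccggctcCACGTGcgcagccggc
MTHFD1L, chr6:150866347-150866374, plus strand: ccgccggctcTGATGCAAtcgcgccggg
DCK, chr4:70993523-70993548, plus strand: ccccggccttCACGTGacctggcgtg
SLC29A1, chr6:44219365-44219385, plus strand: cagtgCACGTGctcccaggtc
In the first listed windows the E2F type letters lay before the RefSeq start in 2 genes, PRPS2 and TYMS, and later windows of GART and DUT hold them before the start too. The 2 stretches printed next are also annotated by GENCODE as an exon of some transcript.
PRPS2, chrX:12791390-12791411, plus strand: gccgccgcgcTTTCCCGCtccc
TYMS, chr18:657604-657631, plus strand: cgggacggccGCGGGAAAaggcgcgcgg
The CCAAT box is shown in the reductase subunit RRM1, 1 of the 12 genes of 13 with it that fell with SCH772984, and in the folate enzyme SHMT1, the one that did not.
RRM1, chr11:4094617-4094684, plus strand: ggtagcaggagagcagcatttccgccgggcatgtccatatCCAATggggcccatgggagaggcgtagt
SHMT1, chr17:18363582-18363666, minus strand: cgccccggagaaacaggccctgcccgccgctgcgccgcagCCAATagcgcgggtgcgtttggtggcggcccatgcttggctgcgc
The 9 genes with CACGTG in the first listed window all fell with SCH772984, with a median log2 fold change of -1.09, and so did 21 of the 24 without it there, with a median of -1.17. With all windows counted, PAICS joins the first set, through the site printed above for its neighbour PPAT, and the numbers become 10 of 10 with a median of -1.05 and 20 of 23 with a median of -1.17. In the first listed windows 3 of 3 genes with the E2F type letters fell, with a median of -1.17, and 27 of 30 without them, with a median of -1.10. For CCAAT these values were 12 of 13 and -1.17 with it and 18 of 20 and -1.02 without it. Each of these medians is over all genes of its set, whether they fell or not.

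The libraries held 9464432 to 10286223 counts with DMSO, 9652741 to 9840769 with compound 1 and 11056977 to 13887859 with SCH772984. Replicate 1 of compound 1 stood apart from its group: its counts differed from those of replicates 2 and 3 with a chi-square per degree of freedom of 11.1 and 8.29, against 2.78 between those 2. As a check of the labels, 8 of 8 ERK output genes fell with SCH772984, with a median log2 fold change of -5.87, and 0 of 8 were called in either direction with compound 1. The line expressed keratin and vimentin transcripts, KRT8 at 2410 to 2549 CPM and VIM at 2400 to 2574 CPM in DMSO, while EPCAM, the acinar and islet genes PRSS1, CPA1, INS and GCG and the leukocyte genes PTPRC and CD3E were at 0 counts in all 9 libraries. Mitochondrially encoded genes took 3.33% to 3.98% of counts with DMSO, 3.41% to 3.92% with compound 1 and 6.23% to 7.52% with SCH772984, and their part in the results was not tested. The list of epithelial markers (KRT8, KRT18, KRT19, EPCAM and CDH1, with CDH2, a cadherin of mesenchymal cells) summed to 3463 to 3726 CPM with DMSO and 1129 to 1277 with SCH772984. KRT8 and KRT18 fell, KRT19 was not called (log2 fold change 0.11, edgeR adjusted p = 0.149), and the cadherins had at most 5 counts a library. The fibroblast list summed to 6.66 to 8.19 CPM with DMSO and 43.4 to 52.8 with SCH772984. Of its 3 genes COL1A1 and COL3A1 were tested and both rose, while its defining gene DCN had 0 to 1 counts. COL1A1 did not pass the filter on low counts between compound 1 and DMSO, so it was tested only through its SCH772984 libraries. The endothelial list summed to 2.87 to 4.41 CPM with DMSO, 6.22 to 6.77 with compound 1 and 0 to 0.268 with SCH772984. The part of these markers in the results was not tested. In these bulk samples fewer cells in a given state and less RNA per cell cannot be told apart.

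The nucleotide enzymes fell broadly with the ERK inhibitor, whereas with compound 1 only 1 of the 37 was called. Values are CPM, read counts relative to the library total after scaling by the trimmed mean of M-values, and a gene is called at a Benjamini-Hochberg adjusted p under 0.05 over all genes tested in edgeR. All 37 members passed the filter on low counts in each comparison. With SCH772984, 32 of 37 fell, 2 rose and 3 were not called, and their median log2 fold change was -1.10. Among all 13834 genes tested, 35.5% were called lower and 37.2% higher, with a median of 0.03. With compound 1, 1 of 37 fell and 0 rose, the median being -0.07, against 0.374% of 12849 genes lower and 0.49% higher and a median of 0.00. Leaving out 1 library moved the number of members lower to between 0 and 6. Without compound 1 replicate 1, where it was 6, 798 genes in all were called lower and 453 higher. In the direct comparison of SCH772984 with compound 1, 31 members were lower, 2 higher and 4 not called, with a median of -0.98, against 32.6% and 33.7% of 13863 genes and a median of 0.03. The 2 comparisons with DMSO share the same 3 control libraries. 16 of 16 replication and cell cycle genes fell with SCH772984 as well, with a median log2 fold change of -1.89, their summed level being 5867 to 5918 CPM with DMSO, 5277 to 5702 with compound 1 and 1559 to 1640 with SCH772984. Their part in the fall of the nucleotide enzymes was not tested.

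Together the 37 transcripts took 6124, 6298 and 6035 CPM of the DMSO libraries, 5844, 5662 and 5805 CPM with compound 1 and 3114, 2987 and 2981 CPM with SCH772984. The means were 6152 ± 133, 5770 ± 96.1 and 3027 ± 74.9 CPM (SD, n = 3), so the sum was 93.8% of DMSO with compound 1 and 49.2% with SCH772984. Neither treated group overlapped the DMSO libraries. By role, the sum with SCH772984 was 38.6% of DMSO for deoxynucleotide enzymes, 45.7% for salvage and uptake, 52.3% for one-carbon enzymes, 52.9% for purine synthesis and 55.3% for pyrimidine synthesis. With compound 1 the same shares were 98.0%, 91.8%, 92.1%, 94.5% and 88.5%. With compound 1 the sums of deoxynucleotide enzymes (1177 to 1212 CPM, against 1183 to 1262 with DMSO), purine synthesis (2269 to 2359 against 2354 to 2514) and salvage (751 to 887 against 873 to 889) overlapped those of DMSO, while the pyrimidine and one-carbon sums lay below them. Most of the pyrimidine difference was 1 gene: the mean sum went from 687 to 608 CPM and that of CAD alone from 371 to 296 CPM. The median log2 fold change of the 5 pyrimidine genes with compound 1 was -0.04.

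**Figure D1:**
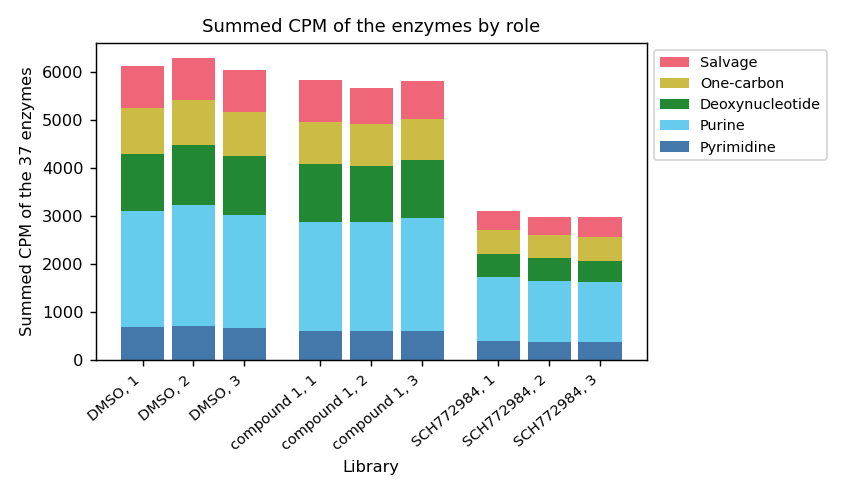
Summed CPM of the 37 enzymes in each of the 9 libraries, stacked by role from 0 on a linear axis. The DMSO bars reach 6035 to 6298 CPM, those of compound 1 stand slightly lower at 5662 to 5844, and those of SCH772984 reach 2981 to 3114.

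Levels between genes were compared as TPM, the share of a library's reads per base of gene length, computed from the gene lengths in the table. For all 37 members that length is all annotated exons of the gene merged, which can exceed the transcript present. The order between genes depends on that length. In DMSO the highest was the thymidine kinase TK1 at 402 ± 17.1 TPM, followed by the PRPP synthetase PRPS2 at 357 ± 18.7, IMPDH2 at 256 ± 10.3 and SLC29A1 at 246 ± 1.01 TPM. The last pair lay within 1 SD of each other. At the low end were ADSL at 4.09 ± 0.632, DHODH at 13.9 ± 0.949 and RRM2B at 13.98 ± 0.464 TPM, of which DHODH and RRM2B also lay within 1 SD. With SCH772984 the order changed. IMPDH2 came first at 266 ± 11.7 TPM, ahead of HPRT1 at 171 ± 9.83, PRPS2 at 167 ± 12.7 and TK1 at 164 ± 14.2, and the last 3 did not differ beyond their SD. RRM2, at rank 7 in DMSO with 226 ± 14.1 TPM, stood at 37.6 ± 1.59 TPM with SCH772984.

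**Figure D2:**
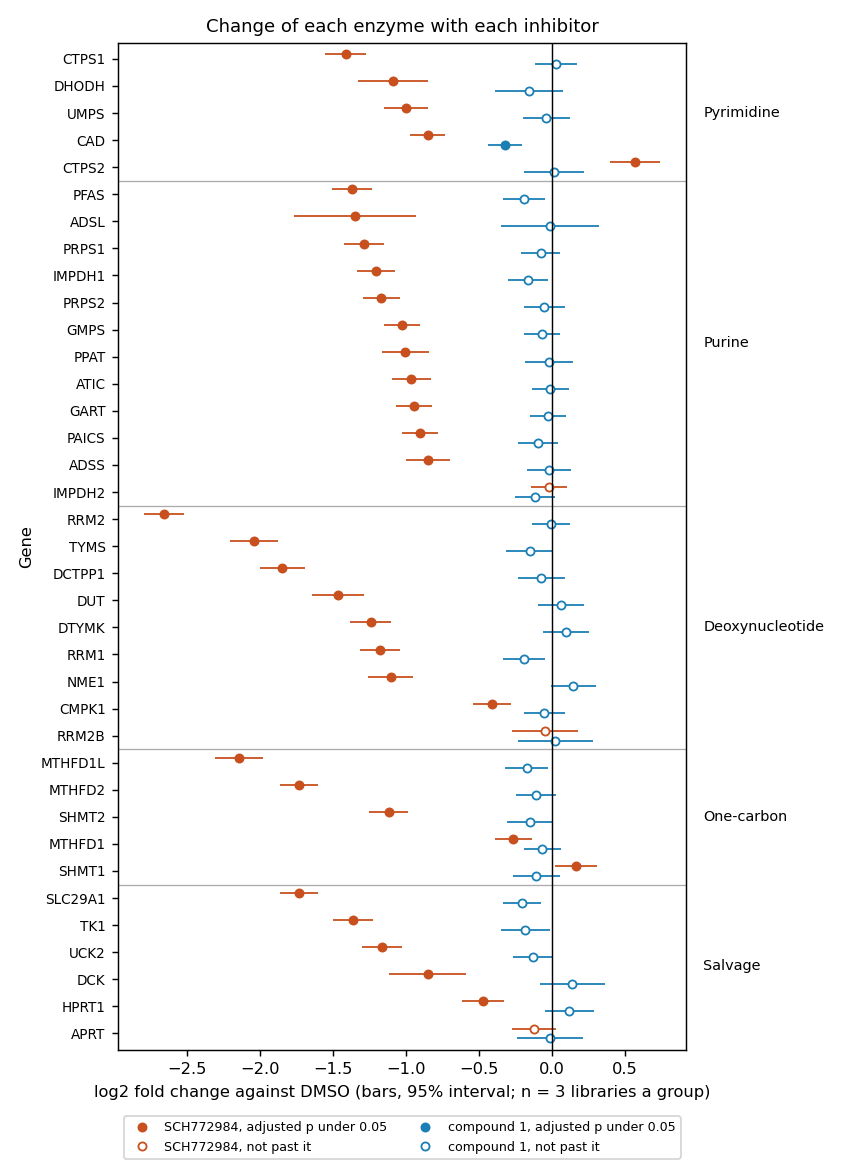
Log2 fold change against DMSO of each enzyme, grouped by role, with SCH772984 and compound 1 (bars, 95% interval, n = 3 libraries a group; filled points, adjusted p under 0.05). With SCH772984 the points run from -2.66 for RRM2 to 0.57 for CTPS2, while with compound 1 they lie near 0 and CAD at -0.33 is the 1 filled point.

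Of the 5 genes of pyrimidine synthesis, 4 fell and 1 rose with SCH772984, and 1 fell with compound 1. CAD (chr2:27217390-27243943, plus strand, hg38), whose protein carries out the first steps towards UMP, was at 371, 374 and 369 CPM in DMSO, 303, 292 and 292 CPM with compound 1 and 209, 196 and 214 CPM with SCH772984. The 3 groups did not overlap, the order being DMSO, compound 1, SCH772984 from high to low. Its log2 fold change was -0.85 ± 0.061 (SE, edgeR adjusted p = 8.00e-17) with SCH772984 and -0.33 ± 0.060 (SE, edgeR adjusted p = 0.0247) with compound 1, and -0.52 ± 0.079 (SE, edgeR adjusted p = 7.88e-06) between the inhibitors. CAD was the 1 member called with compound 1, and its adjusted p was 0.194, 0.252 and 0.127 without DMSO replicate 1, 2 or 3 and 0.106 without compound 1 replicate 3, at log2 fold changes of -0.32 to -0.33 throughout.

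DHODH, the mitochondrial enzyme that oxidizes dihydroorotate, was at 25.6, 29.3 and 28.2 CPM in DMSO, 28.7, 21.6 and 24.0 CPM with compound 1 and 15.1, 11.9 and 12.3 CPM with SCH772984. The SCH772984 libraries were all below the others, and its log2 fold change there was -1.09 ± 0.12 (SE, edgeR adjusted p = 1.10e-10). UMPS, which makes UMP from orotate, was at 105, 113 and 93.6 CPM in DMSO, 99.8, 98.2 and 104 CPM with compound 1 and 54.7, 49.8 and 51.8 CPM with SCH772984. It fell with SCH772984 with a log2 fold change of -1.002 ± 0.077 (SE, edgeR adjusted p = 1.13e-15), and with compound 1 the value was -0.04 (adjusted p = 0.862).

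The pair of CTP synthases moved apart. CTPS1 (chr1:40979335-41012565, plus strand) was at 143, 156 and 149.8 CPM in DMSO, 144, 159 and 152 CPM with compound 1 and 57.3, 58.5 and 53.2 CPM with SCH772984. CTPS2 (chrX:16588003-16712936, minus strand) was at 34.2, 37.6 and 33.4 CPM in DMSO, 31.3, 36.7 and 37.9 CPM with compound 1 and 56.3, 50.6 and 49.98 CPM with SCH772984. With SCH772984 all 3 libraries of CTPS1 lay below and all 3 of CTPS2 lay above every other library, with log2 fold changes of -1.41 ± 0.071 (SE, edgeR adjusted p = 4.01e-22) and 0.57 ± 0.087 (SE, edgeR adjusted p = 1.69e-07). With compound 1 the changes were 0.03 and 0.01, neither called.

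Of the 12 genes of purine synthesis, 11 fell with SCH772984, with log2 fold changes from -0.85 to -1.37, and IMPDH2 was not called. None was called with compound 1, where PFAS and IMPDH1 had an unadjusted p under 0.05. PFAS, which makes the intermediate FGAM, was at 158, 165 and 158 CPM in DMSO, 145, 129 and 146 CPM with compound 1 and 65.2, 57.4 and 63.9 CPM with SCH772984. All compound 1 libraries were below DMSO and all SCH772984 libraries below both, and the log2 fold changes were -1.37 ± 0.070 (SE, edgeR adjusted p = 8.03e-22) and -0.19 ± 0.072 (SE, edgeR adjusted p = 0.211). PRPS1, a PRPP synthetase, was at 140.4, 141 and 139 CPM in DMSO, 134, 131 and 132 CPM with compound 1 and 58.7, 55.5 and 58.0 CPM with SCH772984. Its log2 fold change with SCH772984 was -1.29 ± 0.070 (SE, edgeR adjusted p = 5.34e-21), close to that of its relative PRPS2, -1.17 ± 0.065 (SE, edgeR adjusted p = 1.41e-20).

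IMPDH1, which turns IMP into XMP on the way to GMP, was at 187, 189.6 and 185 CPM in DMSO, 174, 153 and 172 CPM with compound 1 and 85.4, 79.9 and 79.1 CPM with SCH772984. IMPDH2, the second enzyme of that step, was at 198, 215 and 203 CPM in DMSO, 203, 178 and 186 CPM with compound 1 and 208, 198 and 204 CPM with SCH772984. The SCH772984 libraries of IMPDH1 were all below the rest, whereas those of IMPDH2 lay within the DMSO range or just below its lowest value. The log2 fold changes were -1.21 ± 0.067 (SE, edgeR adjusted p = 1.03e-20) for IMPDH1 and -0.02 ± 0.062 (SE, edgeR adjusted p = 0.784) for IMPDH2, which was at 0.15 and called higher (edgeR adjusted p = 0.0211) with library sizes alone in place of scaled ones. The pseudogene IMPDH1P8 had 10 to 62 counts a library, and reads that IMPDH1 shares with it could be counted to either. PRPS1 has such a copy in PRPS1P2, with 14 to 48 counts.

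ADSL, adenylosuccinate lyase, was the lowest member of all, at 7.06, 9.70 and 8.41 CPM in DMSO, 8.38, 8.34 and 8.09 CPM with compound 1 and 4.07, 3.20 and 2.68 CPM with SCH772984. Its log2 fold change with SCH772984 was -1.35 ± 0.21 (SE, edgeR adjusted p = 2.99e-07). ADSL shares 1344 exon bases, 18.9% of its length, with a gene on the same strand that had 0 to 7 counts, so its level is uncertain. The log2 fold changes of the other purine genes with SCH772984 lay between those of PRPS1 and ADSS. PPAT, the first committed step, had a log2 fold change of -1.01 ± 0.082 (SE, edgeR adjusted p = 6.28e-15), and PAICS, which acts midway, had one of -0.91 ± 0.063 (SE, edgeR adjusted p = 2.95e-17). These 2 genes sit head to head with 125 bases between them. GART, an enzyme of 3 of the steps, had -0.95 ± 0.062 (SE, edgeR adjusted p = 4.05e-18) and ATIC, which closes the ring to IMP, had -0.97 ± 0.068 (SE, edgeR adjusted p = 5.96e-17). GMPS, which makes GMP, had -1.03 ± 0.063 (SE, edgeR adjusted p = 5.50e-19) and ADSS, on the way to AMP, had -0.85 ± 0.076 (SE, edgeR adjusted p = 1.13e-13).

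**Figure D3:**
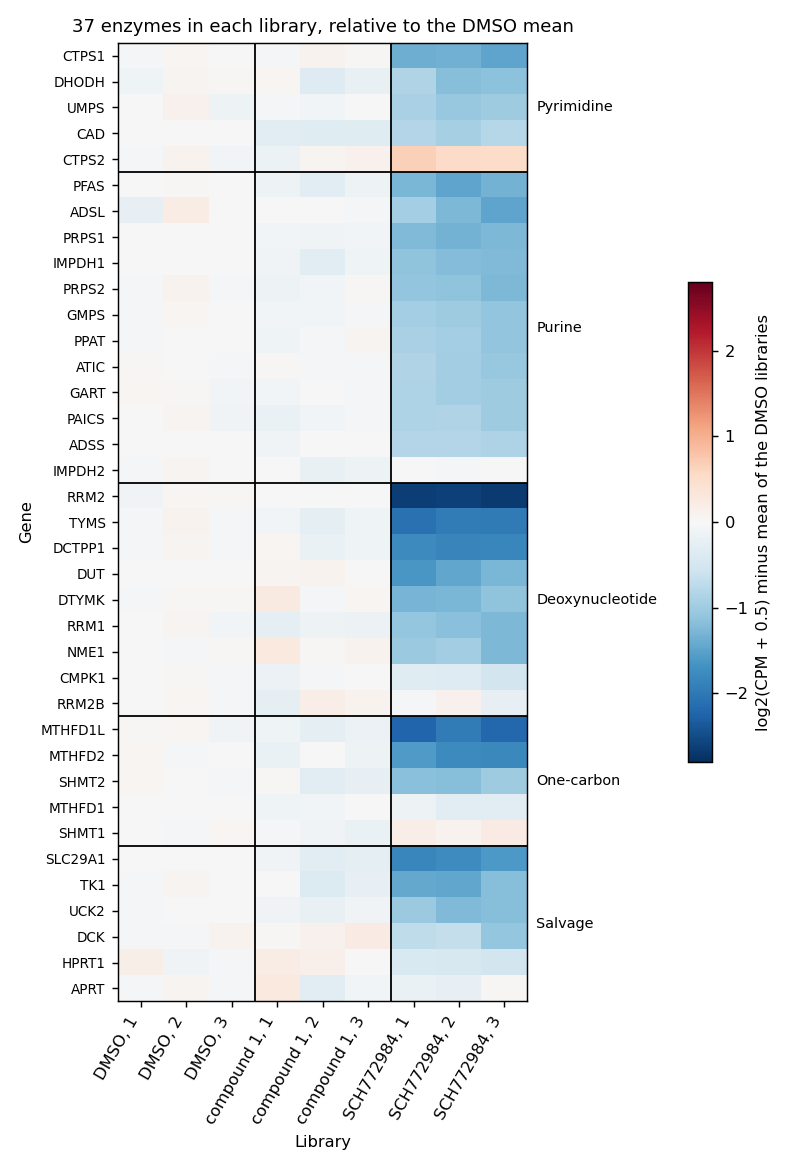
Log2(CPM + 0.5) of each of the 37 enzymes (rows, grouped by role) in each library (columns) minus the mean of the 3 DMSO libraries. Blue fills nearly all of the 3 SCH772984 columns, deepest for RRM2, MTHFD1L and TYMS, while CTPS2 is red there and IMPDH2, RRM2B and APRT are nearly white.

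Of the 9 genes for deoxynucleotide enzymes, 8 fell with SCH772984 and 0 were called with compound 1. The median log2 fold change of all 9 with SCH772984 was -1.24. RRM2 (chr2:10120698-10131419, plus strand), the small subunit of ribonucleotide reductase made in dividing cells, fell most of all members. It was at 322, 362 and 356 CPM in DMSO, 342, 344 and 346 CPM with compound 1 and 55.4, 56.0 and 53.7 CPM with SCH772984. Its log2 fold change with SCH772984 was -2.66 ± 0.069 (SE, edgeR adjusted p = 1.31e-32), a 6.32-fold fall, and with compound 1 it was -0.01 ± 0.066 (SE, edgeR adjusted p = 0.976). The large subunit RRM1 was at 166, 177 and 158 CPM in DMSO, 138, 151 and 148 CPM with compound 1 and 78.7, 73.7 and 69.8 CPM with SCH772984. All its compound 1 libraries were below DMSO, with a log2 fold change of -0.19 ± 0.073 (SE, edgeR adjusted p = 0.224) there and -1.18 ± 0.070 (SE, edgeR adjusted p = 1.46e-19) with SCH772984. The p53-inducible small subunit RRM2B was at 22.6, 23.1 and 21.4 CPM in DMSO, 18.4, 25.4 and 24.2 CPM with compound 1 and 22.0, 24.5 and 18.9 CPM with SCH772984, and the groups overlapped (log2 fold change -0.05, SE 0.12, edgeR adjusted p = 0.714 with SCH772984). RRM2 shares 20.2% of its exon bases with a gene on the same strand that had 0 to 1 counts.

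TYMS (chr18:657604-673578, plus strand) makes thymidylate from deoxyuridylate and was at 91.5, 100.3 and 90.9 CPM in DMSO, 89.6, 77.6 and 86.4 CPM with compound 1 and 21.6, 23.8 and 23.3 CPM with SCH772984. DCTPP1, which breaks down dCTP and its modified forms, was at 105, 112 and 103 CPM in DMSO, 111, 93.8 and 98.4 CPM with compound 1 and 30.5, 29.1 and 29.5 CPM with SCH772984. DUT, which removes dUTP, was at 62.0, 62.4 and 62.9 CPM in DMSO, 65.7, 67.3 and 62.2 CPM with compound 1 and 19.8, 22.5 and 25.4 CPM with SCH772984. In all 3 genes the SCH772984 libraries lay far below the rest and the log2 fold changes were -2.04 ± 0.084 (SE, edgeR adjusted p = 2.16e-25), -1.85 ± 0.079 (SE, edgeR adjusted p = 7.90e-25) and -1.47 ± 0.092 (SE, edgeR adjusted p = 8.83e-19), respectively. TYMS shares 39.1% of its exon bases with ENOSF1 and DCTPP1 42.1% with ZNF771, each on the opposite strand, and the strand setting of the counting was not given in the sources used here. ENOSF1 had 320 to 407 counts a library with DMSO and 563 to 855 with SCH772984, and ZNF771 had 195 to 211 and 236 to 358, so reads of TYMS and DCTPP1 may be affected. DUT shares 14.5% with an antisense gene that had 2 to 18 counts a library. DTYMK, the kinase of dTMP, fell with a log2 fold change of -1.24 ± 0.073 (SE, edgeR adjusted p = 7.22e-20), and NME1, a nucleoside diphosphate kinase, with a log2 fold change of -1.10 ± 0.079 (SE, edgeR adjusted p = 7.63e-17). NME1 shares 18.6% of its exon bases with the readthrough gene NME1-NME2, which had 0 to 6 counts. The UMP and CMP kinase CMPK1 changed less, with a log2 fold change of -0.41 ± 0.065 (SE, edgeR adjusted p = 3.07e-07).

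The 3 mitochondrial one-carbon enzymes fell with SCH772984, of the 2 cytosolic ones MTHFD1 fell slightly and SHMT1 rose slightly, and 0 of the 5 were called with compound 1. MTHFD1L (chr6:150865549-151101887, plus strand), which releases formate in mitochondria, was at 117, 119 and 107 CPM in DMSO, 104, 96.2 and 102 CPM with compound 1 and 24.2, 29.1 and 24.5 CPM with SCH772984. MTHFD2, the mitochondrial dehydrogenase and cyclohydrolase, was at 325, 304 and 314 CPM in DMSO, 274, 311 and 285 CPM with compound 1 and 104, 91.6 and 89.0 CPM with SCH772984. SHMT2, which takes the one-carbon unit from serine in mitochondria, was at 208, 198 and 196 CPM in DMSO, 205, 164 and 172 CPM with compound 1 and 89.2, 87.2 and 101 CPM with SCH772984. In each the SCH772984 libraries lay below all others, with log2 fold changes of -2.15 ± 0.083 (SE, edgeR adjusted p = 2.57e-26), -1.74 ± 0.067 (SE, edgeR adjusted p = 2.12e-26) and -1.12 ± 0.068 (SE, edgeR adjusted p = 3.07e-19). MTHFD2 shares 27.2% of its exon bases with SLC4A5 on the opposite strand, which had 0 to 6 counts.

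MTHFD1, the cytosolic enzyme of 3 folate steps, was at 233, 232 and 228 CPM in DMSO, 213, 218 and 228 CPM with compound 1 and 209, 185 and 185 CPM with SCH772984. SHMT1, the cytosolic counterpart of SHMT2, was at 72.2, 70.5 and 76.4 CPM in DMSO, 71.2, 67.8 and 63.8 CPM with compound 1 and 82.6, 78.8 and 85.2 CPM with SCH772984. For MTHFD1 the SCH772984 libraries were below DMSO and for SHMT1 above, without overlap. The log2 fold changes were -0.27 ± 0.064 (SE, edgeR adjusted p = 0.000267) and 0.17 ± 0.073 (SE, edgeR adjusted p = 0.0404). The call of SHMT1 was lost in an edgeR fit without any 1 of DMSO replicates 1, 2 and 3 and SCH772984 replicates 1 and 3, where the adjusted p was 0.164, 0.225, 0.0625, 0.0989 and 0.100 in that order. It was also lost with DESeq2, without a filter, with all 9 libraries in 1 fit and with the gene length trend removed, where the log2 fold change was 0.02. With edgeR library sizes alone in place of scaled ones, MTHFD1 was at -0.09 (adjusted p = 0.181).

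**Figure D4:**
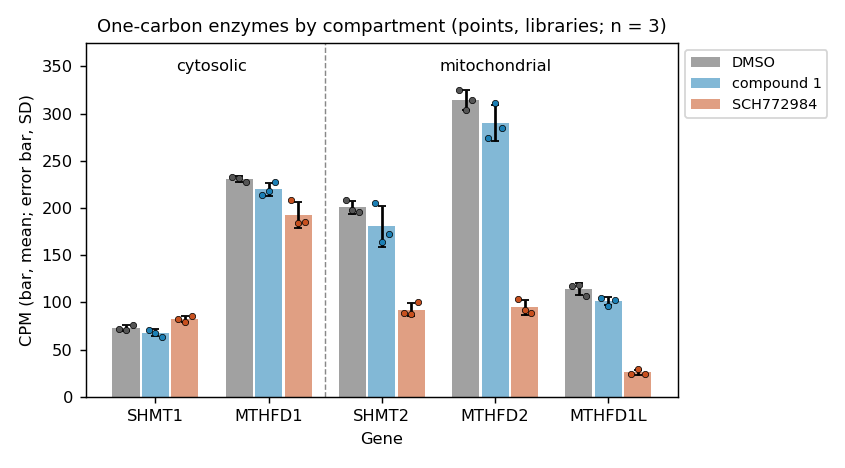
CPM of the 5 one-carbon enzymes by group (bars, mean; error bars, SD; points, the 3 libraries), with cytosolic enzymes left of the dashed line and mitochondrial ones right of it. With SCH772984 the mitochondrial MTHFD2 falls to 89.0 to 104 CPM from 304 to 325 with DMSO, while SHMT1 lies at 78.8 to 85.2 against 70.5 to 76.4 CPM. Bars of different genes are not corrected for length.

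Of the 6 genes of salvage and uptake, 5 fell with SCH772984 and APRT was not called, and 0 were called with compound 1. SLC29A1 (chr6:44219505-44234151, plus strand), the carrier that lets nucleosides and their drug analogs across the cell membrane, was at 312, 315 and 312 CPM in DMSO, 294, 257 and 261 CPM with compound 1 and 87.6, 92.7 and 103 CPM with SCH772984. All compound 1 libraries were below DMSO, and the log2 fold changes were -1.73 ± 0.067 (SE, edgeR adjusted p = 1.72e-26) with SCH772984 and -0.21 ± 0.066 (SE, edgeR adjusted p = 0.146) with compound 1. TK1, the kinase of thymidine, was at 208, 227 and 213 CPM in DMSO, 219, 166 and 185 CPM with compound 1 and 79.3, 78.5 and 94.2 CPM with SCH772984. Its compound 1 libraries overlapped DMSO through replicate 1, and it fell with SCH772984 with a log2 fold change of -1.37 ± 0.071 (SE, edgeR adjusted p = 1.25e-21).

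UCK2, the kinase of uridine and cytidine, was at 146, 149 and 149 CPM in DMSO, 138, 128 and 138 CPM with compound 1 and 71.3, 62.3 and 64.8 CPM with SCH772984, with a log2 fold change of -1.17 ± 0.070 (SE, edgeR adjusted p = 2.43e-19) for SCH772984. DCK, which phosphorylates deoxycytidine and gemcitabine, was at 21.0, 20.6 and 23.2 CPM in DMSO, 21.9, 23.6 and 25.5 CPM with compound 1 and 12.9, 13.3 and 9.92 CPM with SCH772984, with a log2 fold change of -0.85 ± 0.13 (SE, edgeR adjusted p = 2.86e-07). DCK shares 6.17% of its exon bases with MOB1B on the same strand, which had 154 to 169 counts a library with DMSO and 257 to 284 with SCH772984, where DCK itself had 187 to 212 and 148 to 158. HPRT1, which salvages hypoxanthine and guanine, was at 118, 98.5 and 102 CPM in DMSO, 123, 116 and 106 CPM with compound 1 and 78.8, 77.1 and 73.9 CPM with SCH772984, with a log2 fold change of -0.48 ± 0.074 (SE, edgeR adjusted p = 2.20e-07). In UCK2, DCK and HPRT1 every SCH772984 library lay below every other library. APRT, which salvages adenine, was at 72.4, 78.8 and 73.6 CPM in DMSO, 91.0, 60.2 and 70.9 CPM with compound 1 and 65.5, 64.2 and 77.0 CPM with SCH772984, and the groups overlapped (log2 fold change -0.12, SE 0.078, edgeR adjusted p = 0.150). It was called lower without SCH772984 replicate 3, at -0.22 (edgeR adjusted p = 0.00791), and with the gene length trend removed, at -0.27 (adjusted p = 0.00132).

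Pairs of enzymes for the same step were compared as the ratio of their CPM within a library, which cancels the library scaling. 6 pairs in 3 comparisons gave 18 exact two-sided permutation tests of 3 libraries against 3, which cannot go below p = 0.1. RRM2 was 14.2, 15.6 and 16.6 times RRM2B in DMSO, 18.6, 13.5 and 14.3 times with compound 1 and 2.52, 2.29 and 2.84 times with SCH772984. CTPS1 was 4.18, 4.14 and 4.48 times CTPS2 in DMSO, 4.61, 4.34 and 4.03 times with compound 1 and 1.02, 1.15 and 1.06 times with SCH772984. IMPDH1 was 0.944, 0.880 and 0.913 times IMPDH2 in DMSO, 0.859, 0.862 and 0.929 times with compound 1 and 0.411, 0.404 and 0.387 times with SCH772984. With SCH772984 RRM2, CTPS1 and IMPDH1 fell, while RRM2B and IMPDH2 were not called and CTPS2 rose. The SCH772984 ratios of these 3 pairs did not overlap the others.

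The differences in mean log2 ratio between SCH772984 and DMSO were -2.60 for RRM2/RRM2B, -1.97 for CTPS1/CTPS2 and -1.18 for IMPDH1/IMPDH2. The one-carbon pairs of cytosolic to mitochondrial enzyme went up, by 1.29 for SHMT1/SHMT2 and 1.86 for MTHFD1/MTHFD1L. Each of these 5 had the smallest possible exact permutation p of 0.1, or 0.18 adjusted over the 18 tests. SHMT1 was 0.347, 0.357 and 0.390 times SHMT2 in DMSO and 0.927, 0.903 and 0.845 times with SCH772984. MTHFD1 was 1.99, 1.96 and 2.13 times MTHFD1L in DMSO and 8.61, 6.35 and 7.57 times with SCH772984. PRPS1/PRPS2 differed by -0.12 with overlapping libraries (exact permutation p = 0.2). With compound 1 the 6 differences from DMSO lay between -0.05 and 0.10, with exact permutation p from 0.2 to 1.

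**Figure D5:**
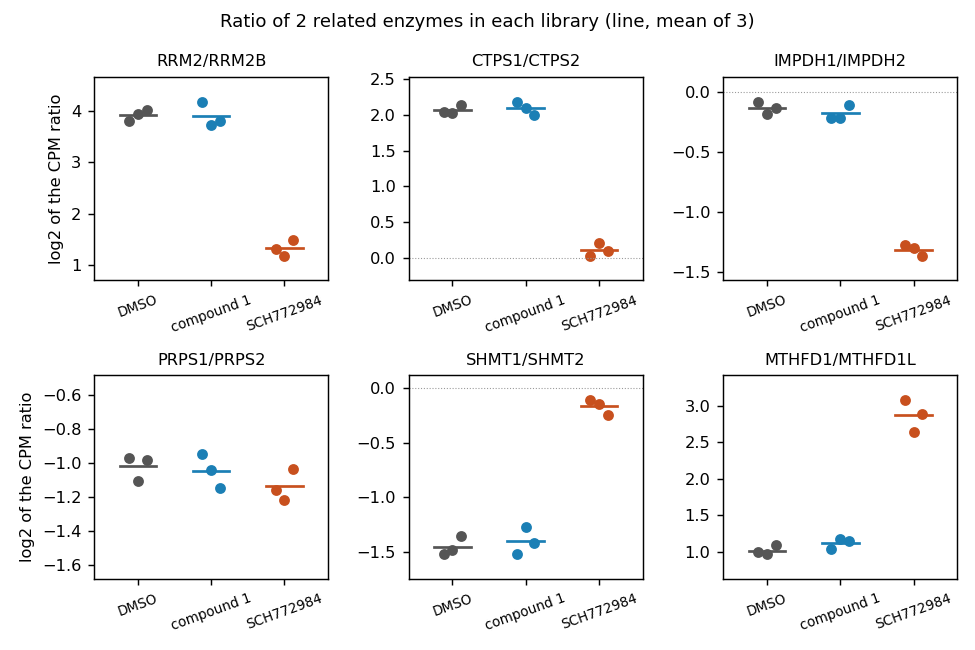
Log2 of the ratio of CPM (after adding 0.5) for 6 pairs of related enzymes in each library, with the mean of 3 as a line and a dotted line at equal CPM where it falls in the panel; the vertical scales differ. The SCH772984 points are apart from the rest in 5 pairs, by -2.60 for RRM2/RRM2B at most, and overlap them for PRPS1/PRPS2.

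With compound 1 the differences in the members were small, and CAD was the 1 called. 29 of 37 log2 fold changes were negative, as were 6365 of all 12849 genes tested. At an unadjusted p under 0.05 in edgeR 7 members were lower and 0 higher, against 7.69% and 7.35% of all genes. Besides CAD these were SLC29A1 (-0.21), PFAS (-0.19), RRM1 (-0.19), TK1 (-0.18), MTHFD1L (-0.17) and IMPDH1 (-0.17), none of which passed the adjusted threshold. In 10 members all compound 1 libraries were below all DMSO libraries, and in 1, NME1, all were above, against 10.6% and 10.3% of all genes tested. Replicate 1, which stood apart from its group, bore on these counts: without it 6 members were called lower, CAD with PFAS, IMPDH1, SHMT2, TK1 and SLC29A1, at log2 fold changes of -0.20 to -0.29 for the 5 gained. Without it 798 genes in all were called lower and 453 higher, compared with 48 and 63 in the fit of all 6. Directly against compound 1, the 2 members higher with SCH772984 were CTPS2, 0.57 ± 0.11 (SE, edgeR adjusted p = 0.000104), and SHMT1, 0.28 ± 0.092 (SE, edgeR adjusted p = 0.0103). The 4 not called were IMPDH2, RRM2B, APRT and MTHFD1, of which MTHFD1 had -0.19 ± 0.084 (SE, edgeR adjusted p = 0.0541). MTHFD1 was called lower there with DESeq2 (adjusted p = 0.0473), with all 9 libraries in 1 edgeR fit (0.0215), with the gene length trend removed (6.54e-05) and without compound 1 replicate 1 (0.0143) or SCH772984 replicate 1 (0.0253). IMPDH2 was called higher there with library sizes alone, at 0.24 (edgeR adjusted p = 0.00979).

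Genes of the same routes outside the 37 were read from 3 lists, to be set beside the 35.5% of all genes tested that were called lower and the 37.2% called higher with SCH772984. Of 23 folate, serine and methionine cycle genes, 19 were tested, of which 15 fell and 3 rose with SCH772984, with a median log2 fold change of -0.54. PSAT1, of serine synthesis, was at 277, 235 and 252 CPM in DMSO, 271, 248 and 220.2 CPM with compound 1 and 59.2, 64.9 and 62.4 CPM with SCH772984, and the reduced folate carrier SLC19A1 at 147, 131 and 132 CPM in DMSO, 119.6, 103 and 106 CPM with compound 1 and 32.2, 35.0 and 36.0 CPM with SCH772984. Both were lower in every SCH772984 library, with log2 fold changes of -2.04 ± 0.071 (SE, edgeR adjusted p = 4.55e-28) and -1.995 ± 0.077 (SE, edgeR adjusted p = 2.43e-26), as was GLDC of the glycine cleavage system (log2 fold change -2.82, SE 0.24, edgeR adjusted p = 3.00e-14). ALDH1L2, a mitochondrial enzyme that oxidizes formyl folate, rose from 1 to 7 counts to 41 to 44 counts, and it passed the filter only through the SCH772984 libraries. With compound 1 the 1 call was MAT2A, which makes S-adenosylmethionine, at 571, 542 and 650.2 CPM in DMSO, 755, 838 and 723 CPM with compound 1 and 465, 569 and 544 CPM with SCH772984. Its log2 fold change was 0.40 ± 0.079 (SE, edgeR adjusted p = 0.0365) with compound 1 and -0.17 ± 0.070 (SE, edgeR adjusted p = 0.0352) with SCH772984.

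Of 26 genes for other steps between nucleotides, 24 were tested, of which 10 fell and 7 rose with SCH772984 with a median of -0.14, shares near those of all genes, and none was called with compound 1. AMPD3, one of the AMP deaminases, was at 7.16 to 8.19 CPM in DMSO and fell with a log2 fold change of -1.97 ± 0.24 (SE, edgeR adjusted p = 6.26e-10) and the dCMP deaminase DCTD with a log2 fold change of -1.38 ± 0.081 (SE, edgeR adjusted p = 1.14e-19). AMPD2, another AMP deaminase, at 91.9 to 96.1 CPM in DMSO, had a log2 fold change of 0.04 ± 0.074 (SE, edgeR adjusted p = 0.661) with SCH772984. The adenylate kinase AK1 rose with a log2 fold change of 1.17 ± 0.16 (SE, edgeR adjusted p = 2.48e-08) and ADSSL1, the muscle form of ADSS, with a log2 fold change of 1.61 ± 0.26 (SE, edgeR adjusted p = 5.28e-07). GMPR, which turns GMP back into IMP, also rose, from 0 to 3 counts to 11 to 22 counts, and it passed the filter only through the SCH772984 libraries.

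Of 25 other genes for salvage, breakdown and transport 20 were tested, of which 6 fell and 9 rose with SCH772984, with a median of 0.14, again near the shares of all genes, and none was called with compound 1. Among those that fell, the uridine phosphorylase UPP1 was at 31.1, 21.6 and 24.8 CPM in DMSO, 35.8, 25.9 and 30.3 CPM with compound 1 and 1.99, 4.21 and 3.55 CPM with SCH772984, and the purine nucleoside phosphorylase PNP at 116, 133 and 121 CPM in DMSO, 120.1, 107 and 116 CPM with compound 1 and 21.6, 22.8 and 20.5 CPM with SCH772984. Their log2 fold changes were -2.99 ± 0.18 (SE, edgeR adjusted p = 1.01e-16) and -2.52 ± 0.083 (SE, edgeR adjusted p = 6.60e-29), and xanthine dehydrogenase, XDH, had -2.67 ± 0.38 (SE, edgeR adjusted p = 2.18e-08). CDA, the cytidine deaminase that also inactivates gemcitabine, rose from 0 to 6 counts a library with DMSO and 0 to 3 with compound 1 to 65 to 77 with SCH772984. CDA passed the filter only through the SCH772984 libraries. The carriers SLC29A4 and SLC29A3, relatives of SLC29A1, rose with a log2 fold change of 1.37 ± 0.095 (SE, edgeR adjusted p = 3.11e-17) and 1.21 ± 0.19 (SE, edgeR adjusted p = 3.55e-07). MTAP, the salvage enzyme for methylthioadenosine, and its neighbour CDKN2A, both known to be deleted in this line, had 0 counts in all 9 libraries.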

How the data were processed

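RNA-seq of MIA PaCa-2 cells gave 9 libraries, 3 a group. The authors deposited 1 table of raw read counts per gene, with coordinates, lengths and biotypes. The submitters' processing notes name HISAT2 2.0.5, featureCounts 1.5.0-p3 and hg38, and the annotation release and strand setting are not given in the sources used here. The coordinates of 58735 of 58735 genes equal those of GENCODE 29. Reads from overlapping genes on either strand may therefore be split or lost.

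Libraries were grouped by the treatment in the labels. Each pair of groups was fitted separately in edgeR 4.0.16 (R 4.3.3) by the robust quasi-likelihood test, with TMM factors and filterByExpr (minimum count 10, total 15). p was adjusted by Benjamini-Hochberg over all genes tested and called under 0.05, with an unadjusted p under 0.05 beside it for compound 1. SE is that of the log2 fold change, and drawn 95% intervals take it with normal quantiles. CPM was scaled by TMM over all 9 libraries, and TPM used the gene lengths of the table. The ratios of enzyme pairs were compared by exact permutation with scipy 1.17.1. The fits were tested on simulated data. Library totals of 9464432 to 13887859 counts and the spread between libraries of a group both limit the precision. The counts carry no molecular identifiers.

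The members and lists were chosen with earlier results of these data known, so no test over the list was made. All 37 members are accounted for. Values per library were given for up to 4 members of each role with the largest called change and for those called higher or called with compound 1. Their partners in a pair were given too, except PRPS2, and further members were added after their values were seen. Genes of the related lists were named where called with a log2 change of at least 1, up to 3 a direction, or called with compound 1, while AMPD2 was added after its values were seen and MTAP and CDKN2A as genes known to be deleted in this line. Some genes that this rule names are not reported here. Alternatives were another normalization (RLE, or library size alone), DESeq2 1.42.0, other filters, all libraries in 1 fit, a replicate block, a gene length trend, protein-coding genes, other thresholds and leaving out each library. Chromosome positions of genes are from the table (hg38).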

Additional observations from a re-analysis of the deposited data

How the results depend on the processing

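Of the 37 members in the SCH772984 comparison with DMSO, whether a gene was called stayed as it was in 605 of the 629 cases tried, a call was lost in 21 and gained in 3, and 0 called members changed sign. For SCH772984 against compound 1 the numbers were 604, 18, 7 and 0, and for compound 1 against DMSO 612, 5, 12 and 0. Of those gained, IMPDH2, at -0.02 and not called, went to 0.15 (adjusted p = 0.0211) with edgeR library sizes alone, a setting that moves the median of all genes from 0.03 to 0.20 and the share of calls that are higher to 61.5%. Removing the gene length trend moves them to -0.12 and 42.7%. The cause was not tested.

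The median log2 fold change of the members with SCH772984 was -1.03 with at least 10 counts in every library, -1.21 without the length trend, -0.93 with library sizes alone, -1.06 among protein-coding genes, and -1.15 to -1.05 leaving out 1 library. Against compound 1 these values were -0.90, -1.09 and -0.84 for the first 3 and -1.04 to -0.94. The summed CPM with library sizes alone was 5876 in DMSO, 5632 with compound 1 and 3246 with SCH772984.

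Members higher with SCH772984 numbered 1 with DESeq2, all 9 libraries in 1 fit, no filter or no length trend, 3 with library sizes alone, 0 at a change of at least 2-fold, and 1 to 2 leaving out 1 library. Against compound 1 the number was 3 with library sizes alone, 1 without the length trend, 0 at 2-fold and 1 to 2 (1 without compound 1 replicate 3). Members lower numbered 23 at 2-fold against DMSO, where 1472 of all 13834 genes were lower and 2517 higher, and 17 against compound 1, where 1396 and 2293 of 13863 were. With compound 1, members lower numbered 7 by unadjusted p, 2 without the length trend, 0 at 2-fold, and 0 to 6 leaving out 1 library (0 without DMSO replicates 1, 2 or 3 or compound 1 replicate 3, 6 without compound 1 replicate 1).

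Deviations of same-numbered replicates correlated little (r of -0.09 to 0.13). With 3 libraries a group this cannot decide whether the numbers mark pairs. With a replicate block the members lower and higher numbered 32 and 2, 1 and 0, and 31 and 2, as without it. Over all genes the calls with compound 1, 48 lower and 63 higher, became 219 and 193 with the replicate block, 228 and 189 without a filter, 102 and 104 with DESeq2 and 3 and 5 without DMSO replicate 2. Depth limits the low members ADSL, DCK, RRM2B and DHODH most.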
